A study of Homo sapiens with 9 samples.

Results

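The genes described here are 29 transcriptional targets of the tumour suppressor p53, chosen by symbol and found among the 58395 genes of the count tables by Ensembl identifier. All 29 matched, and 27 passed the filter on low counts and were tested. BTG2 and EDA2R did not pass it. The RNA came from MDA-MB-231, an established human triple-negative breast cancer cell line that is known to carry a missense mutation in the DNA-binding domain of p53. The allele was not examined in these data. Cells grown in DMEM were reverse transfected with siRNA and held for 96 h. The 3 groups of 3 libraries were NC, which received a nontargeting control siRNA, and SKP2-1 and SKP2-2, which each received a different siRNA against SKP2, the substrate-binding subunit of an SCF ubiquitin ligase. SKP2 is the target in the title and on every sample, but the series' design text speaks of ZIP7. All 9 libraries are from 1 cell line, all cells were transfected, and nothing in the labels says that replicates were separate cultures, so p-values measure the spread between these libraries, which may be technical.

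As background, wild-type p53 is a transcription factor that is stabilised by DNA damage and other stress and binds a response element made of a pair of short palindromic elements. Its targets arrest the cell cycle, repair DNA, trigger apoptosis, adjust metabolism and, through MDM2, MDM4 and PPM1D, shut p53 itself down again. Mutations in the DNA-binding domain impair this binding, and many of the targets have other activators, so their RNA can be present where p53 is mutant.

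SKP2 was at 62.1 ± 3.99 in units of CPM (read counts scaled to library size and normalized by TMM, the trimmed mean of M-values; mean ± SD, n = 3) in NC. It was at 3.58 ± 0.307 CPM in SKP2-1, 17.3 times lower (adjusted p = 8.64e-12), and at 5.96 ± 0.236 CPM in SKP2-2, 10.4 times lower (adjusted p = 5.35e-12). The libraries held 35.5 to 49.9 M gene counts. NC replicate 1 stood apart from the rest of its group on the third principal component of all genes (-30.3 against 6.8 and 21.2). The SKP2-2 libraries were spread evenly along it (21.7, 3.3 and -14.6 for replicates 1 to 3), with replicate 3 nearest to NC replicate 1. Counts are also given without NC replicate 1 and SKP2-2 replicate 3. The summed level of 6 markers of mesenchymal breast cancer lines was 7231 to 7356 CPM in NC, 7867 to 8108 in SKP2-1 and 7959 to 8176 in SKP2-2. The 6 did not move together. Log2 changes against NC with SKP2-1 and SKP2-2 were 0.62 and 0.35 for CD44 and 0.52 and 0.54 for MSN. They were 0.80 and -0.61 for FN1, -0.14 and 0.39 for CAV1, -1.15 and -0.09 for AXL and 0.05 and 0.11 for VIM. Markers of other cells were low throughout. The sum of 6 luminal breast markers lay between 22.7 and 32.9 CPM, that of 4 leukocyte markers between 1.25 and 3.42 CPM, and that of 3 endothelial markers between 3.4 and 10.2 CPM. The leukocyte sum was higher with both siRNAs than in NC, and the endothelial sum was higher in SKP2-1 alone. The part of these markers in the results below was not tested. In RNA from whole cultures, fewer cells of a type and less RNA per cell cannot be told apart.

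Promoter sequence is shown for 4 target genes whose RNA passed the test with both siRNAs and which had a match in a start window. The windows shown for DDB2, AEN and PLK2 hold the consensus p53 element, and that of MDM2 holds only a pair with mismatches. RefSeq (GRCh38.p14) gave 37 start windows for 25 of the 29 genes, each from 250 bases before to 50 after a transcription start. The consensus 10-base p53 element, which reads the same on both strands, was searched at every position of each window. Its pattern is RRRCWWGYYY, with R for A or G, W for A or T and Y for C or T. The C and G of the pattern were required in every match. The element without mismatches was present in windows of AEN, DDB2, FDXR, PLK2 and SESN1. These made up 13.5% of the target gene windows against 6.63% of all 35116 windows of the same length. A pair of elements with a spacer of at most 13 bases and at most 2 mismatches was found for AEN, DDB2, FDXR and MDM2, again 13.5% of the windows, against 2.93% of all windows. Both MDM2 windows counted here overlap and hold the same pair, so the 5 windows hold 4 distinct pairs. Only DDB2 held a pair with 0 mismatches, at positions 6 to 26 after the start, with a spacer of 1 base. The AEN pair lay 34 to 15 bases before the start and the MDM2 pair 94 to 75 bases before it, each with 2 mismatches and a spacer of 0. PLK2 held a single element. These matches describe the reference sequence and are not measurements of binding. In the stretches below, written 5′ to 3′ on the strand of the gene, capitals mark the matched elements. The stretches are chr12:68808867-68809016 (plus strand) for MDM2, chr11:47214824-47214999 (plus) for DDB2, chr15:88621190-88621339 (plus) for AEN and chr5:58460087-58460236 (minus) for PLK2.
MDM2: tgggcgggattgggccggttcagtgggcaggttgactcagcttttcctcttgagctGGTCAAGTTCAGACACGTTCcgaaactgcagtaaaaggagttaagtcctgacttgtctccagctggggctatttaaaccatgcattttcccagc
DDB2: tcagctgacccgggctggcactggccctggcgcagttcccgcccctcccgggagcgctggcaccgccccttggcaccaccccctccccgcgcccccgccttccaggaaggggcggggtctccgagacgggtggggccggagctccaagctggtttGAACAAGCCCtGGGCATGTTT
AEN: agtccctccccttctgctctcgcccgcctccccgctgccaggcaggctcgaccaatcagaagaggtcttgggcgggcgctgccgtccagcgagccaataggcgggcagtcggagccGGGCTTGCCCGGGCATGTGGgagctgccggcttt
PLK2: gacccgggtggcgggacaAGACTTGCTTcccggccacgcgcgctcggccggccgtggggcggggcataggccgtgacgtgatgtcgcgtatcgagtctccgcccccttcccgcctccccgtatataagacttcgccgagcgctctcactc

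In NC, 25 of the 29 genes had a mean of at least 2 CPM. Per kilobase of exon, PLK2 had the highest level, at 64.6 CPM per kb (range 60.7 to 67.3 over the 3 libraries). CCNG1 followed at 39.9, TRIAP1 at 29.8, PERP at 22.4, POLH at 15.7 and RRM2B at 12.8 CPM per kb, and the NC ranges of these 6 genes did not overlap. APAF1 at 9.16, GDF15 at 9.04 and MDM2 at 8.72 CPM per kb came next with overlapping ranges, that of GDF15 running from 6.21 to 12.6. AEN, DDB2 and TP53I3 also overlapped, at 7.91, 7.72 and 7.57 CPM per kb. At the low end, TP53I11, BTG2 and SPATA18 were at 0.0339, 0.0269 and 0.0166 CPM per kb, from 1 to 23 counts per library over all 9 libraries. EDA2R, a receptor of the TNF receptor family, had 0 counts in all 9 libraries, which allows at most 0.0602 to 0.0846 CPM per library, counting error only.

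**Figure D1:**
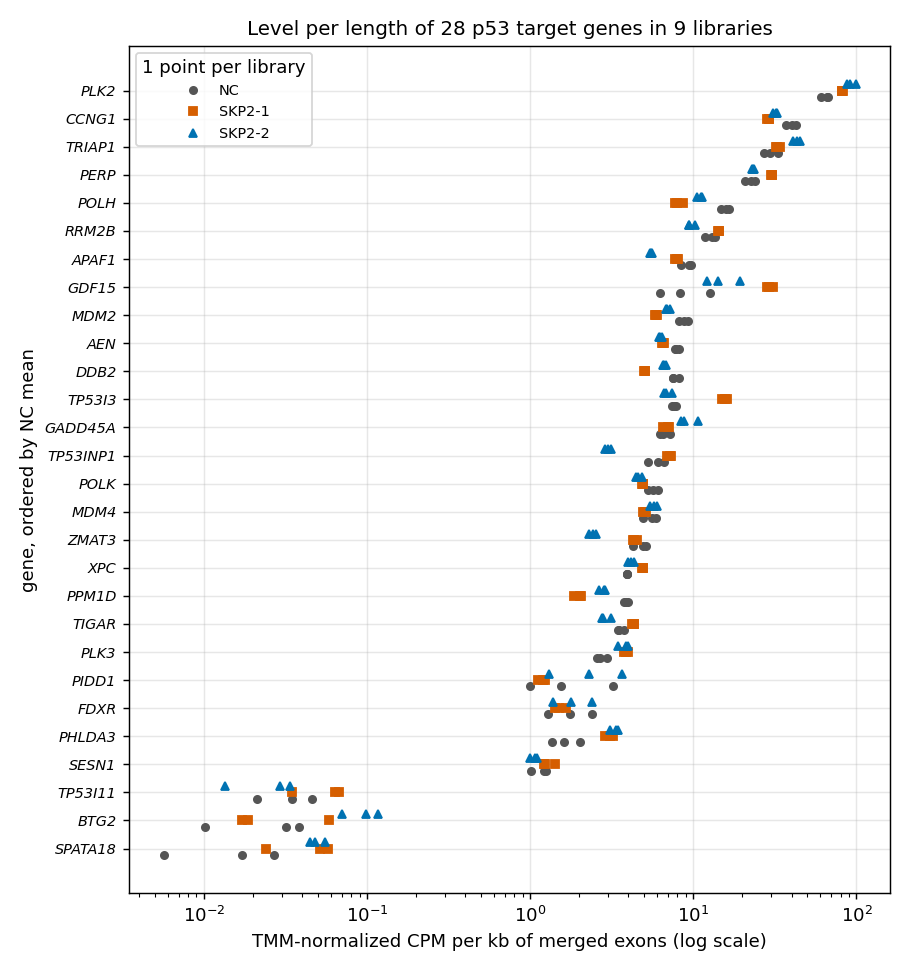
Level of each p53 target gene per kilobase of exon (CPM per kb, log axis) in the 3 libraries of each group, ordered by the NC mean. PLK2 is highest at 64.6 CPM per kb, and TP53I11, BTG2 and SPATA18 lie below 0.05 CPM per kb in NC. EDA2R, with 0 counts, is not drawn.

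Against NC, the p53 targets moved in both directions with each siRNA. With SKP2-1, 11 of the 27 tested genes rose and 8 fell (edgeR quasi-likelihood test, Benjamini-Hochberg adjusted over all 16575 tested genes, threshold 0.05). These are 70.4% of the targets against 45.5% of all genes tested, of which 25% rose and 20.5% fell. With SKP2-2, 6 rose and 12 fell, 66.7% of the targets against 49.4% of all genes, of which 25.2% rose and 24.1% fell. Without NC replicate 1 and SKP2-2 replicate 3, 28 targets were tested, and 9 rose and 10 fell with SKP2-1 while 7 rose and 12 fell with SKP2-2. These are 67.9% in each comparison, against 52.3% and 53.3% of all genes in that fit. Well-expressed genes passed more often: among those with a mean of at least 2 CPM, 18 of 25 targets passed with SKP2-1 against 54.5% of genes, and 17 of 25 with SKP2-2 against 58.3%. The median log2 change of the 27 targets was 0.14 with SKP2-1 (all genes 0.02) and -0.14 with SKP2-2 (all genes 0.03). The median size of the change, whatever its sign, was 0.34 and 0.35, against 0.26 and 0.29 over all genes. In 18 of the 27 the SKP2-1 and NC libraries did not overlap (54.8% of all genes), and in 19 the SKP2-2 and NC libraries did not (53.6%). Both comparisons use the same NC libraries, so the values are given side by side.

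**Figure D2:**
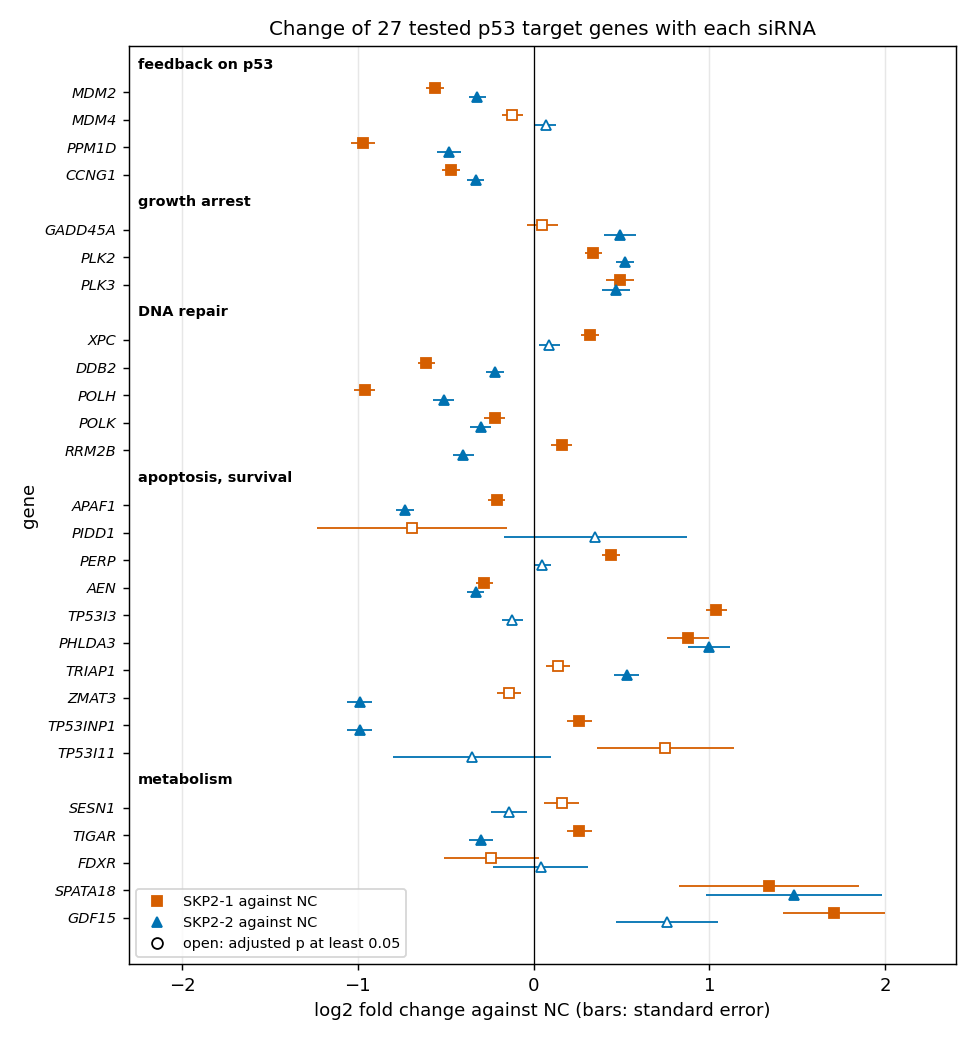
Log2 fold change of the 27 tested p53 target genes against NC for SKP2-1 and SKP2-2, grouped by role, with bars of 1 standard error and filled points for an adjusted p under 0.05. The feedback genes MDM2, PPM1D and CCNG1 lie below 0 with both siRNAs, and ZMAT3 and TP53INP1 are near -1 with SKP2-2 only.

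Of the 4 genes that feed back on p53, MDM2, PPM1D and CCNG1 fell with each siRNA, where 20.5% (SKP2-1) and 24.1% (SKP2-2) of all genes fell, and MDM4 did not pass with either. MDM2 (chr12:68808176-68850686, GRCh38, as are the gene positions below), the ubiquitin ligase that degrades p53, was at 109, 116 and 123 CPM in NC, at 79.1, 78.6 and 77.9 in SKP2-1 and at 95.7, 90.3 and 92.2 in SKP2-2. Every knockdown library lay below every NC library, and the SKP2-1 libraries were the lowest. MDM2 was 1.48 times lower in SKP2-1 (log2 change -0.56, SE 0.05, adjusted p = 7.81e-07) and 1.25 times lower in SKP2-2 (-0.32, SE 0.05, adjusted p = 0.000103).

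PPM1D (chr17:60600183-60666280) encodes WIP1, a phosphatase that removes activating phosphates from p53 and its kinases. It was at 18.9, 20 and 19.6 CPM in NC, at 10.2, 9.41 and 10.3 in SKP2-1 and at 14.5, 13.3 and 14.3 in SKP2-2, again in 3 separate bands with SKP2-1 lowest. The log2 changes were -0.97 (SE 0.07, adjusted p = 8.71e-08), or 1.96 times lower, and -0.48 (SE 0.07, adjusted p = 4.62e-05), or 1.39 times lower. CCNG1, cyclin G1, which recruits a phosphatase to MDM2, was at 115, 124 and 131 CPM in NC, at 90.4, 89.8 and 87.2 in SKP2-1 and at 99.1, 95 and 101 in SKP2-2. Its groups did not overlap either, and it was 1.39 times lower in SKP2-1 (adjusted p = 5.93e-06) and 1.26 times lower in SKP2-2 (adjusted p = 0.000125). MDM4, the relative of MDM2 that masks the activation domain of p53, ranged from 54.1 to 64.8 CPM in NC, 54.2 to 56.5 in SKP2-1 and 59.4 to 66 in SKP2-2, with log2 changes of -0.12 (adjusted p = 0.152) and 0.07 (adjusted p = 0.434). Without NC replicate 1, the SKP2-1 value of MDM4 was -0.20 and passed (adjusted p = 0.00597), as it did without SKP2-2 replicate 1 (-0.15, adjusted p = 0.0337).

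The growth arrest and stress kinase genes were higher where they passed, while 25% (SKP2-1) and 25.2% (SKP2-2) of all genes rose. PLK2 (chr5:58453982-58460260), a stress-induced polo-like kinase, was at 321, 290 and 315 CPM in NC, at 390, 389 and 393 in SKP2-1 and at 436, 419 and 473 in SKP2-2, so that every SKP2-2 library was above every SKP2-1 library and these above NC. It rose 1.27-fold with SKP2-1 (log2 change 0.34, SE 0.05, adjusted p = 0.000168) and 1.44-fold with SKP2-2 (0.52, SE 0.05, adjusted p = 3.29e-06). PLK3, another kinase of the same family, was at 9.28, 10.3 and 8.99 CPM in NC, at 13.5, 13.8 and 13 in SKP2-1 and at 12.1, 13.5 and 13.9 in SKP2-2. Here the knockdown groups overlapped each other and lay above NC, with a rise of 1.41-fold (adjusted p = 0.000175) and 1.38-fold (adjusted p = 0.000245). GADD45A, a growth arrest protein induced by DNA damage, was at 14.9, 13 and 13.4 CPM in NC and 14.7, 13.4 and 14.5 in SKP2-1 (log2 change 0.05, adjusted p = 0.694). In SKP2-2 it was at 18.1, 17.5 and 22.1 CPM, above all other libraries, and rose 1.4-fold (0.49, SE 0.09, adjusted p = 0.000593). BTG2, an antiproliferative protein, had 1, 4 and 5 counts in NC, 2, 2 and 8 in SKP2-1 and 13, 12 and 9 in SKP2-2, too few for the filter, and was not tested.

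Among the 5 genes of DNA repair and nucleotide supply, POLH, DDB2 and POLK fell with each siRNA. Of all genes tested, 11% fell with both siRNAs. POLH (chr6:43576150-43615660), the polymerase that copies past ultraviolet lesions, had the second largest fall of any target with SKP2-1, after PPM1D. It was at 52.6, 55.8 and 58.2 CPM in NC, at 30.4, 28 and 27.3 in SKP2-1 and at 40, 39.6 and 37.2 in SKP2-2. The groups formed 3 bands with no overlap, with log2 changes of -0.96 (SE 0.06, adjusted p = 3.09e-08), or 1.94 times lower, and -0.51 (SE 0.06, adjusted p = 8.77e-06), or 1.43 times lower. DDB2 (chr11:47214465-47239240) recognises ultraviolet damage for nucleotide excision repair and has a start window that holds the p53 element pair without mismatches shown above. It was at 36.7, 36.6 and 40.1 CPM in NC, at 24.7, 24.9 and 24.4 in SKP2-1 and at 33.2, 32.4 and 31.8 in SKP2-2. It was 1.53 times lower in SKP2-1 (log2 change -0.61, SE 0.05, adjusted p = 7.99e-07) and 1.16 times lower in SKP2-2 (-0.22, SE 0.05, adjusted p = 0.00377), with no overlap between groups.

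POLK, another polymerase that copies past DNA lesions, was at 47.9, 51.9 and 55.1 CPM in NC, at 44.8, 44.5 and 44.1 in SKP2-1 and at 43.9, 40.7 and 41.5 in SKP2-2, 1.16 times lower (adjusted p = 0.00714) and 1.23 times lower (adjusted p = 0.000728). XPC, the damage sensor of global genome nucleotide excision repair, was at 18.9, 18.7 and 18.7 CPM in NC, at 23.2, 23.5 and 23.6 in SKP2-1 and at 19.2, 19.9 and 20.7 in SKP2-2. It rose 1.25-fold with SKP2-1 (log2 change 0.32, SE 0.05, adjusted p = 0.000328) and its SKP2-2 value of 0.09 did not pass (adjusted p = 0.213). Genes on the opposite strand share exon bases with XPC: the antisense gene XPC-AS1 (23.8%), the protein-coding gene LSM3 (6.63%) and another protein-coding gene (8.61%). Whether strand was used in counting is not stated. Where it was not, reads in shared bases may have been among those assigned to several genes and left out. RRM2B, the p53-induced subunit of ribonucleotide reductase, was at 65.6, 71.8 and 75.7 CPM in NC, at 79.7, 79.3 and 78.5 in SKP2-1 and at 56.5, 52.3 and 52.3 in SKP2-2. With SKP2-1 it was 1.11-fold higher (log2 change 0.16, SE 0.06, adjusted p = 0.0357), a call that 12 of 17 alternative analyses did not make (adjusted p from 0.00732 to 0.155). The value fell to 0.09 without NC replicate 1 (adjusted p = 0.155). It stayed at 0.15 to 0.16 in the fits without NC replicate 2, any SKP2-1 library or SKP2-2 replicate 2, which also lost the call. With SKP2-2 it was 1.32 times lower (-0.40, SE 0.06, adjusted p = 4.72e-05).

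**Figure D3:**
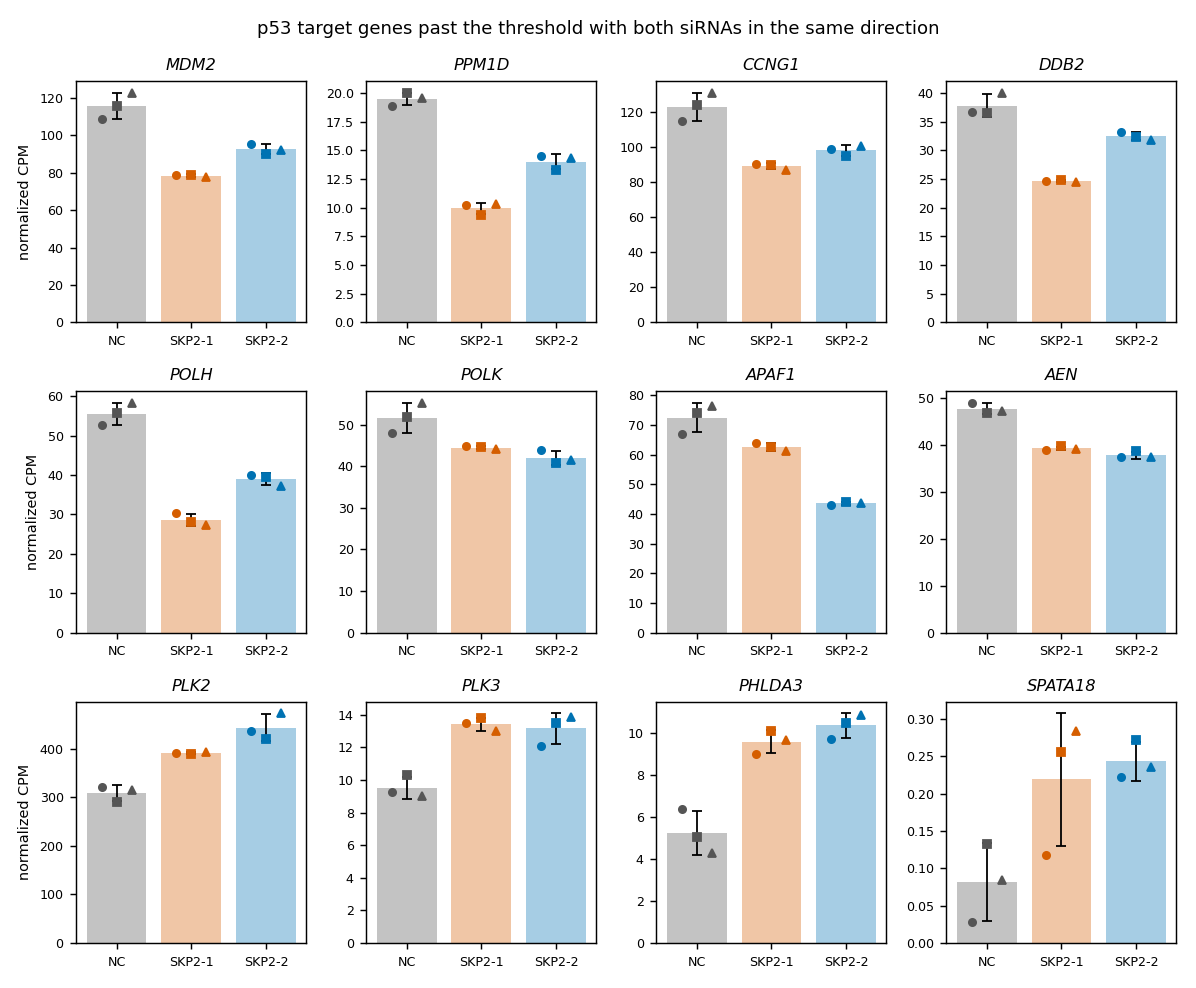
CPM in each library, with the group mean, for the p53 target genes that passed against NC with each siRNA in the same direction; each panel has its own axis. MDM2, PPM1D, POLH and DDB2 form 3 separate bands with NC highest and SKP2-1 lowest, and PLK2 forms 3 bands with SKP2-2 highest.

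Genes of apoptosis and survival changed in both directions. Of the 10 tested, 4 rose and 2 fell with SKP2-1, and 2 rose and 4 fell with SKP2-2. That is 60% in each comparison, against 45.5% and 49.4% of all genes. TP53I3 (chr2:24077433-24085861), also called PIG3, a quinone oxidoreductase, was at 17.6, 18 and 17 CPM in NC, at 36.4, 37.2 and 34.6 in SKP2-1 and at 15.2, 17.1 and 15.8 in SKP2-2. The SKP2-1 libraries stood far above the other 6, a rise of 2.06-fold (log2 change 1.04, SE 0.06, adjusted p = 2.05e-08), while the SKP2-2 value of -0.12 did not pass (adjusted p = 0.117). PERP, a membrane protein of desmosomes and apoptosis, was at 88.7, 97.2 and 102 CPM in NC, at 130, 131 and 129 in SKP2-1 and at 101, 98.4 and 99.4 in SKP2-2. It rose 1.35-fold with SKP2-1 (0.44, SE 0.05, adjusted p = 1.11e-05), and its SKP2-2 libraries lay within the NC range (0.05, adjusted p = 0.445).

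ZMAT3 and TP53INP1 were the targets that fell furthest with SKP2-2. ZMAT3 (chr3:179017223-179072279), an RNA-binding zinc finger protein, was at 41.3, 47.5 and 49.8 CPM in NC, at 40.9, 43.5 and 41.5 in SKP2-1 and at 23.3, 24.6 and 22.2 in SKP2-2. It was 1.98 times lower in SKP2-2 (log2 change -0.99, SE 0.07, adjusted p = 1.1e-07), and the SKP2-1 value of -0.14 did not pass (adjusted p = 0.118) but passed without NC replicate 1 (-0.23, adjusted p = 0.00328) or SKP2-2 replicate 1 (-0.17, adjusted p = 0.0426). TP53INP1 (chr8:94925972-94949411), a stress protein that promotes autophagy and p53 phosphorylation, was at 30, 34.4 and 37.3 CPM in NC, at 39.3, 41 and 41.7 in SKP2-1 and at 17.7, 16.4 and 17.1 in SKP2-2. Its libraries formed 3 bands with NC in the middle, a rise of 1.2-fold with SKP2-1 (0.26, SE 0.07, adjusted p = 0.00939) and a fall of 1.99 times with SKP2-2 (-0.99, SE 0.07, adjusted p = 1.6e-07).

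APAF1 (chr12:98645141-98735433), the scaffold of the apoptosome, was at 66.9, 74.1 and 76.4 CPM in NC, at 64, 62.4 and 61.2 in SKP2-1 and at 43.1, 44 and 43.7 in SKP2-2. It was 1.16 times lower in SKP2-1 (log2 change -0.21, SE 0.05, adjusted p = 0.00476) and 1.66 times lower in SKP2-2 (-0.73, SE 0.05, adjusted p = 1.24e-07), with no overlap between groups. AEN, an apoptosis-enhancing nuclease, was at 48.9, 46.7 and 47.2 CPM in NC, at 38.9, 39.6 and 39.1 in SKP2-1 and at 37.3, 38.6 and 37.4 in SKP2-2. Both knockdown groups were below NC and close to each other, 1.21 times (adjusted p = 0.000221) and 1.26 times lower (adjusted p = 4.46e-05). PHLDA3 (chr1:201464383-201469237), which inhibits AKT at the membrane, was at 6.38, 5.06 and 4.27 CPM in NC, at 9.03, 10.1 and 9.67 in SKP2-1 and at 9.74, 10.5 and 10.9 in SKP2-2. Every knockdown library exceeded every NC library, and PHLDA3 rose 1.84-fold (log2 change 0.88, SE 0.12, adjusted p = 4.97e-05) and 1.99-fold (1.00, SE 0.12, adjusted p = 1.41e-05).

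TRIAP1, a mitochondrial inhibitor of apoptosis, was at 39.1, 42.4 and 47.4 CPM in NC, at 49, 46.4 and 46.8 in SKP2-1 and at 64.8, 62.4 and 59.1 in SKP2-2. It rose 1.44-fold with SKP2-2 (log2 change 0.53, SE 0.07, adjusted p = 2.04e-05), and its SKP2-1 value of 0.14 did not pass (adjusted p = 0.103) except without NC replicate 3 (0.22, adjusted p = 0.00743). PIDD1, which builds the caspase-2 activating PIDDosome, was at 19, 9.02 and 5.88 CPM in NC, at 7.19, 7 and 6.57 in SKP2-1 and at 7.67, 13.4 and 21.4 in SKP2-2. Its SD was 6.83 CPM in NC and 6.9 in SKP2-2, against 0.321 in SKP2-1. PIDD1 did not pass with SKP2-1 (-0.69, SE 0.54, adjusted p = 0.348) or SKP2-2 (0.35, SE 0.52, adjusted p = 0.627). Between the siRNAs its libraries did not overlap, but the difference did not pass (1.04, SE 0.53, adjusted p = 0.154). PIDD1 shares 1.82% of its exon bases with RPLP2, a far more abundant ribosomal protein gene. TP53I11 had 7 to 12 counts per library in NC, 10 to 23 in SKP2-1 and 4 to 11 in SKP2-2, with adjusted p of 0.133 and 0.549.

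GDF15 (chr19:18374731-18389176), a secreted cytokine of the stress response, belongs to the metabolism and mitochondria group and had the largest rise of any target with SKP2-1. It was at 26.3, 17.3 and 13 CPM in NC, at 60.5, 64.1 and 59.2 in SKP2-1 and at 25.3, 29.4 and 40.5 in SKP2-2. The SKP2-1 libraries lay above all others, a rise of 3.27-fold (log2 change 1.71, SE 0.29, adjusted p = 0.00294), while SKP2-2 overlapped NC and its value of 0.76 did not pass (SE 0.29, adjusted p = 0.0693). Without NC replicate 1, the SKP2-2 value was 1.06 and passed (adjusted p = 0.012). TIGAR (chr12:4307763-4354593), a fructose bisphosphatase that lowers glycolytic flux, was at 14, 13.9 and 15.2 CPM in NC, at 17.5, 17 and 17.3 in SKP2-1 and at 11.1, 12.5 and 11.3 in SKP2-2. NC lay between the knockdown groups without overlap, with a rise of 1.2-fold in SKP2-1 (0.26, SE 0.07, adjusted p = 0.00664) and a fall of 1.23 times in SKP2-2 (-0.30, SE 0.07, adjusted p = 0.00264).

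SESN1, a sestrin that restrains mTORC1, ranged from 5.08 to 7.3 CPM over the 9 libraries and did not pass against NC (log2 changes 0.16 and -0.14, adjusted p = 0.241 and 0.294). FDXR, the ferredoxin reductase of the mitochondrial electron transfer to P450 enzymes, was at 8.63, 6.34 and 4.61 CPM in NC, at 5.97, 5.38 and 5.13 in SKP2-1 and at 4.96, 6.37 and 8.66 in SKP2-2, so that all groups overlapped (adjusted p = 0.516 and 0.914). SPATA18, a protein of mitochondrial quality control, had 1, 6 and 4 counts in NC, 5, 10 and 14 in SKP2-1 and 9, 12 and 11 in SKP2-2. It passed with SKP2-1 (adjusted p = 0.0486) and SKP2-2 (adjusted p = 0.0266) on these few counts, and 10 and 6 of the 17 alternative analyses did not make these calls. The lowest fitted values came without NC replicate 1 (1.00, adjusted p = 0.129, and 1.14, adjusted p = 0.0722). The SKP2-1 call was also lost without SKP2-1 replicate 3 (1.08) or 2 (1.24), and at little changed values without NC replicate 3 (1.33) or any SKP2-2 library (1.31 to 1.34), beside 1.34 with all libraries. The SKP2-2 call, at 1.48 with all libraries, was also lost without NC replicate 3 (1.47) or SKP2-2 replicate 2 (1.39), and without SKP2-2 replicate 1 at a value that was not lower.

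**Figure D4:**
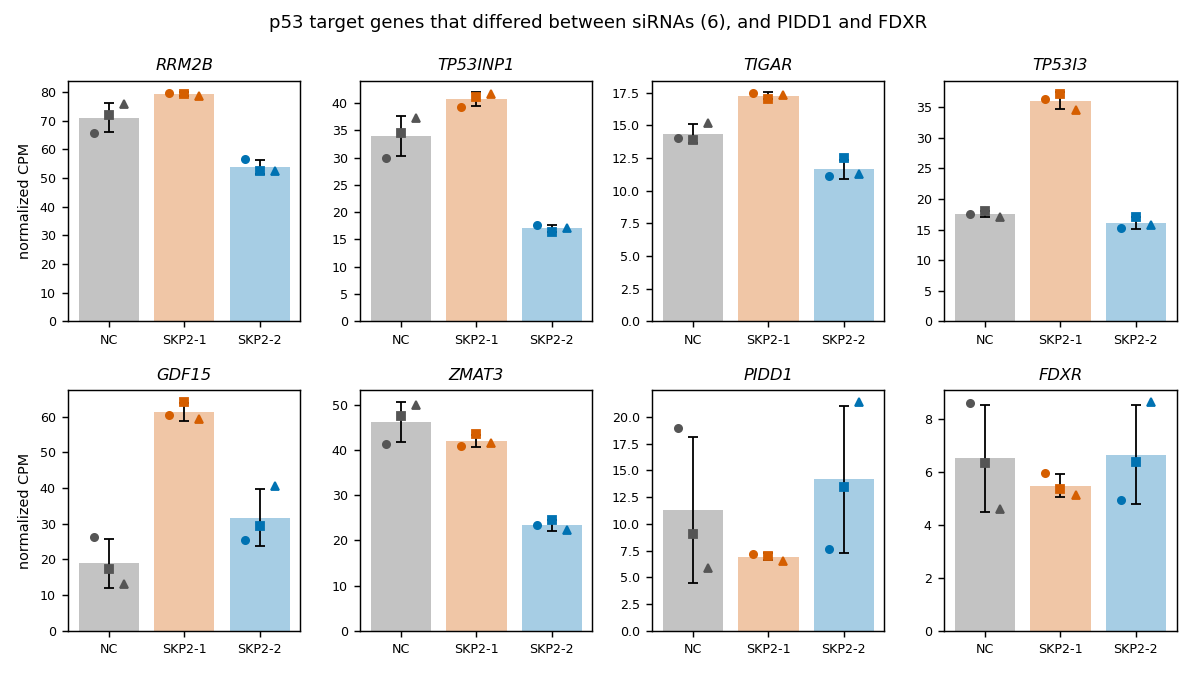
CPM in each library, with the group mean, for selected p53 target genes. TP53I3, GDF15 and ZMAT3 passed against NC with 1 siRNA only, and RRM2B, TP53INP1 and TIGAR passed in opposite directions. PIDD1 and FDXR passed with neither siRNA. Each panel has its own axis. TP53I3 is high in SKP2-1 alone, ZMAT3 is low in SKP2-2 alone, and TP53INP1, TIGAR and RRM2B have NC between SKP2-1 and SKP2-2.

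Tested directly, SKP2-2 and SKP2-1 differed at 20 of the 27 genes, 74.1% against 50.5% of all genes tested, with 9 higher and 11 lower in SKP2-2 (25.2% and 25.3% of all genes). Among genes of at least 2 CPM, 19 of 25 targets passed against 59.5% of genes. The median log2 difference was -0.03 (all genes 0.03), its median size was 0.39 (all genes 0.30), and the 2 groups did not overlap for 23 genes (64% of all genes). The differences with the smallest adjusted p were at TP53I3 (-1.17, SE 0.06, adjusted p = 6.14e-09) and TP53INP1 (-1.25, SE 0.07, adjusted p = 1.57e-08), both lower in SKP2-2. Of 10 tested apoptosis and survival genes, 6 were lower in SKP2-2, among them ZMAT3 (-0.85, adjusted p = 4.25e-07), APAF1 (-0.52, adjusted p = 2.89e-06) and PERP (-0.39, adjusted p = 2.77e-05), and TRIAP1 was higher (0.39, adjusted p = 0.00029). RRM2B (-0.56, adjusted p = 2.36e-06), TIGAR (-0.57, adjusted p = 1.55e-05) and XPC (-0.23, adjusted p = 0.00306) were also lower. All 4 feedback genes were higher in SKP2-2, where MDM2 differed by 0.24 (adjusted p = 0.00111) and PPM1D by 0.49 (adjusted p = 4.15e-05). POLH (0.45, adjusted p = 3.27e-05), DDB2 (0.40, adjusted p = 3.93e-05) and GADD45A (0.44, adjusted p = 0.00131) were higher too. PLK3 (-0.03, adjusted p = 0.802), AEN (-0.05, adjusted p = 0.359), PHLDA3 (0.11, adjusted p = 0.434) and POLK (-0.08, adjusted p = 0.26) did not pass. 

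Some of these calls lay close to the threshold. The calls at CCNG1 (0.14, adjusted p = 0.032), MDM4 (0.19, adjusted p = 0.0297) and GDF15 (-0.95, adjusted p = 0.0295) were each lost in 7 of the 17 alternative analyses, among them the replicate block (MDM4, CCNG1 and GDF15) and the fits that left out any of the SKP2-1 libraries. The differences without 1 SKP2-1 library were about as large as with all 3: 0.13 to 0.15 for CCNG1, 0.17 to 0.20 for MDM4 and -0.98 to -0.92 for GDF15. The CCNG1 call was also lost without NC replicate 2 (0.14) or SKP2-2 replicate 3 (0.12), the MDM4 call without SKP2-2 replicate 1 (0.14) or 2 (0.18), and the GDF15 call without SKP2-2 replicate 1 (-0.82) or 2 (-0.90). TP53I11 (-1.10, adjusted p = 0.036) lost its call in 6, among them those without SKP2-1 replicate 1 (-0.95) or 3 (-0.99) or SKP2-2 replicate 1 (-0.83) or 3 (-1.20). SESN1 (-0.29, adjusted p = 0.0297) lost it in 3, among them those without SKP2-1 replicate 3 (-0.22, adjusted p = 0.144) or SKP2-2 replicate 2 (-0.25, adjusted p = 0.109). PLK2 (0.18, adjusted p = 0.0128) lost it in 1, without SKP2-2 replicate 3 (0.13, adjusted p = 0.0695). POLK passed without SKP2-2 replicate 1 (-0.12, adjusted p = 0.0478).

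Among the p53 family, TP63 was at 1.36 ± 0.471 CPM and TP73 at 4.7 ± 1.65 CPM in NC. TP63 fell with SKP2-1 (-0.63, adjusted p = 0.0491), on libraries that overlapped those of NC. The TP63 call was lost in several alternative analyses. Among them were DESeq2 (-0.65, adjusted p = 0.0805) and the fits without NC replicate 3 (-0.30, adjusted p = 0.292) or SKP2-1 replicate 1 (-0.51, adjusted p = 0.167). TP73 did not pass with SKP2-1 (-0.59, adjusted p = 0.0888) or SKP2-2 (-0.32, adjusted p = 0.328), but passed with SKP2-1 in DESeq2 (-0.62, adjusted p = 0.021). Of 21 tested p53 family members and regulators, 3 rose and 8 fell with SKP2-1, and 2 rose and 10 fell with SKP2-2. These are 52.4% and 57.1% of them, against 45.5% and 49.4% of all genes, with medians of -0.17 and -0.21 against 0.02 and 0.03. The genes that fell included CHEK1, the checkpoint kinase (-0.53 and -0.45), USP7, which deubiquitinates p53 and MDM2 (-0.31 and -1.13), and WRAP53, a telomerase Cajal body protein (-0.82 and -0.29).

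A further 38 p53 targets that are not among the 29 were tested. With SKP2-1, 13 rose and 3 fell (42.1%, all genes 45.5%), and with SKP2-2, 10 rose and 9 fell (50%, all genes 49.4%). Between the siRNAs 26 differed (68.4%, all genes 50.5%). PANK1 (0.37 and 0.59), CMBL (0.59 and 0.29) and STEAP3 (0.27 and 0.62) rose with SKP2-1 and SKP2-2, while TRIM22 (0.31 and -1.04) and TNFRSF10A, a TRAIL death receptor (0.59 and -0.24), rose with SKP2-1 and fell with SKP2-2. The SKP2-1 call was lost for STEAP3 without SKP2-2 replicate 1 (0.23, adjusted p = 0.067) or with only the 2 groups compared (0.20, adjusted p = 0.16), and for TRIM22 without SKP2-1 replicate 2 (0.27, adjusted p = 0.0626). PMAIP1, which encodes the BH3-only protein NOXA, was at 132, 117 and 121 CPM in NC, at 132, 130 and 127 in SKP2-1 and at 163, 177 and 182 in SKP2-2, with log2 changes of 0.08 (adjusted p = 0.295, passing without NC replicate 1 at 0.11, adjusted p = 0.0412) and 0.50 (adjusted p = 6.67e-06). BAX, the mitochondrial pore protein, had log2 changes of -0.10 (adjusted p = 0.157) and 0.14 (adjusted p = 0.0474), the latter with adjusted p from 0.00451 to 0.194 over the alternative analyses. CDKN1A, which encodes the cell cycle inhibitor p21, ranged from 67.6 to 85.3 CPM in NC, 71.4 to 71.9 in SKP2-1 and 58.5 to 70.6 in SKP2-2 and did not pass (-0.04, adjusted p = 0.755, and -0.23, adjusted p = 0.0784). The SKP2-2 value of CDKN1A ran from -0.32 to -0.13 over the alternative analyses (adjusted p from 0.000366 to 0.208) and passed without SKP2-2 replicate 3 (-0.32, adjusted p = 0.0115) or NC replicate 2 (-0.29, adjusted p = 0.0415). BBC3, which encodes PUMA, ranged from 2.3 to 6.52, 3.03 to 4.13 and 3.99 to 9.11 CPM in these groups (log2 changes -0.07, adjusted p = 0.93, and 0.70, adjusted p = 0.275). Without NC replicate 1, the SKP2-2 value of BBC3 was 1.26 and passed (adjusted p = 0.0357), and without SKP2-2 replicate 3 as well, BBC3 passed with SKP2-1 (0.50, adjusted p = 0.0193) and SKP2-2 (0.87, adjusted p = 0.000634). FAS, a death receptor, had changes of 0.25 (adjusted p = 0.085, from 0.0385 to 0.358 over the alternatives) and -0.28 (adjusted p = 0.059, from 0.0107 to 0.199) and differed between the siRNAs (-0.52, adjusted p = 0.00158). All 12 cell cycle genes of the list that p53 represses through p21 and the DREAM complex fell with each siRNA, where 20.5% and 24.1% of all genes fell, with median log2 changes of -1.46 and -0.93 (all genes 0.02 and 0.03). With SKP2-2, 11 passed without NC replicate 2 or with library size scaling only. CDC25C (-1.64 and -1.40), PLK1 (-1.64 and -1.18) and AURKA (-1.48 and -1.17) had the largest falls by the smaller of both changes. BIRC5 had the largest fall of the 12 with SKP2-1 (-1.98) but a small one with SKP2-2 (-0.17), a difference of 1.81 (adjusted p = 3.56e-11). MYBL2 fell by -1.10 and -0.23, a difference of 0.87 (adjusted p = 9.91e-10).

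**Figure D5:**
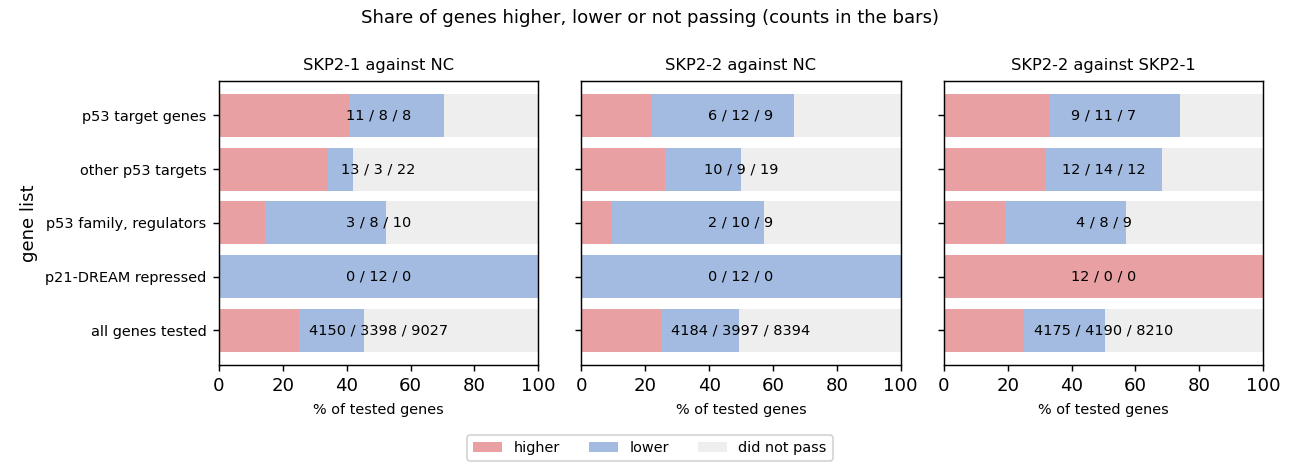
Share of tested genes that were higher, lower or did not pass in each comparison, for the 27 p53 target genes, the other p53 gene lists and all 16575 genes. The 12 repressed cell cycle genes are all lower against NC, whereas the p53 target genes split into higher and lower.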

How the data were processed

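For each library the authors deposited 1 table of unnormalized counts of reads by Ensembl identifier. Per the submitters' processing notes, the tools included HTSeq 0.6.1, STAR, FastQC 0.11.2 and Trim Galore 0.4.1. The genome build, annotation and strand setting are not given in the sources used here. Reads assigned to no gene (5.34% to 5.92%) or to several genes (3.87% to 3.97%) were left out of library totals of 35.5 to 49.9 M.

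Gene positions and exon lengths came from GENCODE 29 (GRCh38), by Ensembl identifier, and promoter windows from RefSeq. Counts were filtered with filterByExpr (minimum count 10, minimum total 15), scaled by TMM and fitted with edgeR 4.0.16 (R 4.3.3) as a robust quasi-likelihood model of group, all 9 libraries together. The 3 comparisons (SKP2-1 and SKP2-2 with NC, and SKP2-2 with SKP2-1) used two-sided tests, with Benjamini-Hochberg adjustment over 16575 genes and a threshold of 0.05. The SE is the size of the log2 change divided by the square root of F. Scripts were tested on simulated data.

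All 29 target genes are named. From 3 other p53 lists, up to 3 genes of at least 2 CPM with the largest smaller change in the same direction with both siRNAs, and up to 2 in opposite directions, are named, besides TP63, TP73, SKP2 and a few classical targets. Some genes of the lists are not reported here. The 29 genes, the lists and the rule were chosen with earlier results of these data known.

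The 17 alternative analyses were scaling by RLE or library size only, no count filter, a filter of 1 CPM in 3 libraries, DESeq2 1.42.0, only the 2 groups compared, a replicate block, and leaving out each library or both NC replicate 1 and SKP2-2 replicate 3.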

Additional observations from a re-analysis of the deposited data

Results flagged for a closer look

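Target genes with a difference between the siRNAs in direction, each tested directly between SKP2-2 and SKP2-1, were TP53INP1, TIGAR and RRM2B, 3 of 27, where 6.64% of all genes passed in opposite directions with the siRNAs. TP53INP1 was higher with SKP2-1 (log2 change 0.26 against NC) and lower with SKP2-2 (-0.99), a difference of -1.25 (adjusted p = 1.57e-08). TIGAR was higher with SKP2-1 (0.26) and lower with SKP2-2 (-0.30), a difference of -0.57 (adjusted p = 1.55e-05). RRM2B was at 0.16 with SKP2-1, the least stable of these values, and at -0.40 with SKP2-2, a difference of -0.56 (adjusted p = 2.36e-06). For all 3 genes, the lowest SKP2-1 library lay above the highest NC library, and the highest SKP2-2 library lay below the lowest NC library.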

How the results depend on the processing

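No call of a target gene reversed in any of the 17 alternative analyses, but values that did not pass changed sign in some, such as PIDD1 (-0.08 to 0.92) and FDXR (-0.19 to 0.28) with SKP2-2. Of the 19, 18 and 20 calls with SKP2-1, with SKP2-2 and between the siRNAs, 17, 17 and 14 were made in every alternative. Leaving out 1 library gave 17 to 20, 17 to 19 and 16 to 21 target genes past the threshold, and 6429 to 8118, 7190 to 9149 and 7160 to 9414 of all genes. DESeq2 gave 17, 18 and 16 target genes, and 6955, 7450 and 7661 of all genes. Replicate numbers did not pair the samples (correlations of same-numbered libraries, after removing group means, from -0.50 to 0.05). The highest correlations joined different numbers, NC replicate 1 with SKP2-2 replicate 3 (0.5) and NC replicate 3 with SKP2-2 replicate 1 (0.45). The replicate block goes by number and does not follow this order. With the replicate block, 18, 18 and 16 target genes and 6818, 7501 and 7500 genes passed. Genes with few counts (BTG2, SPATA18, TP53I11, EDA2R) are limited by depth, and changes in them were not detectable with confidence.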

Other observations

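The third principal component of all genes separated libraries within groups, with NC replicates 1 to 3 at -30.3, 6.8 and 21.2 and SKP2-2 replicates 1 to 3 at 21.7, 3.3 and -14.6. PIDD1, PHLDA3, FDXR and GDF15 ordered against it in both groups, and MDM4, POLH, RRM2B and TRIAP1 with it. These 8 genes are 29.6% of the 27, and 29.9% of all genes tested were ordered in one of these ways. The part of this ordering in the comparisons was not tested.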
